A study of Mus musculus with 4 samples.

Results

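Immediate early genes were followed in dorsal root ganglia dissected fresh from mice, small organs beside the spinal cord that hold the cell bodies of sensory neurons. The members were fixed by name as Fos, Fosb, Junb, Egr1, Arc, Ier2, Dusp1, Nr4a1, Btg2 and Klf4, and every array feature annotated to one of them was taken, which gave 12 probe sets for these 10 of 18193 genes with a symbol of their own. Total RNA of whole ganglia was measured on 4 Affymetrix mouse arrays, 2 from ganglia of one spinal level, called the sample-1 level, and 2 from ganglia of the other, the sample-2 level. Both groups shared the treatment, which the labels give as fresh dissection, and the labels give no strain, genotype, age or agent and do not name the levels. Whether 2 arrays of a level stand for different animals is not stated, so every p-value rests on a spread between arrays that may be technical. Values are deposited intensities of single probe sets on a linear scale.

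Immediate early genes are switched on within minutes of a stimulus without new protein synthesis. Calcium entry and growth factor signals reach their promoters through MAP kinases, CREB and SRF, and their products are mostly transcription factors and short-lived feedback inhibitors. In sensory ganglia they are used as a sign of recent neuronal activity, and handling and dissociation of tissue can also induce them in neurons and in non-neuronal cells.

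No member differed between the levels past the threshold. Of the 12 probe sets, 10 probe sets of 8 genes had signal enough to be tested, and 0 had an adjusted p under 0.05 (limma), while 0.622% of all 27022 tested probe sets did. Unadjusted p lay under 0.05 for 2 of the 10, those of Nr4a1 and of the brighter Klf4 probe set, both lower at the sample-2 level, against 10.9% of all tested probe sets. That count was 1 without the filter on low signal or without the intensity trend. It was also lower without sample-1 array 1, without sample-1 array 2 and without sample-2 array 2. Differences are the sample-2 value minus the sample-1 value on the log2(intensity + 16) scale, which understates changes of dim probe sets. The 95% interval of the difference lay inside a 2-fold change in both directions for all 10, with bounds from -0.81 to 0.72. With a pseudocount of 1, without sample-1 array 2 and without sample-2 array 2 it did so for 9 of 10. The share of all tested probe sets with such an interval was not computed.

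Sequence upstream of the annotated start was read from RefSeq promoters (GRCm38.p6) to show which regulatory letters the members share. A window of 250 bases before the start was found for 7 members, Fos, Fosb, Junb, Dusp1, Nr4a1, Btg2 and Klf4; those of Arc, Egr1 and Ier2 were not analysed here. The motif TGACG is the core of a cAMP response element, the site that CREB recognises. It occurred on either strand in 7 of 7 member windows, and in 17.8% of the 32851 windows searched. The windows of a whole chromosome were left out, and all windows below means these 32851. The whole element TGACGTCA, which contains TGACG on both strands, occurred in the windows of 2, Dusp1 and Btg2, against 1.55% of all windows. Fos is the member most used as an activity marker, and Nr4a1 had 4 matches and the largest difference between levels. Both and the 2 carriers of the whole element are shown 5′ to 3′, each ending at the base before the start. TGACG or its reverse complement CGTCA is in capitals.
Fos, chr12:85473640-85473889, plus strand: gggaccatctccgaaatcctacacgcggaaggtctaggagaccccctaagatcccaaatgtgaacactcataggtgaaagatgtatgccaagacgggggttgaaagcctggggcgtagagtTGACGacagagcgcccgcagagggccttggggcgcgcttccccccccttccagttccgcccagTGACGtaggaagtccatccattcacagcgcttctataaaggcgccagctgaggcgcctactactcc
Nr4a1, chr15:101266596-101266845, plus strand: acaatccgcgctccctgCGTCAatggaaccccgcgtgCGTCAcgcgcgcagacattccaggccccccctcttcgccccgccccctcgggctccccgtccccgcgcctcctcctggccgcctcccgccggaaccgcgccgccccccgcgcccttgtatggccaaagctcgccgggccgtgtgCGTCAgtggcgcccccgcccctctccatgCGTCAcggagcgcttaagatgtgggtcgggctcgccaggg
Dusp1, chr17:26508473-26508722, minus strand: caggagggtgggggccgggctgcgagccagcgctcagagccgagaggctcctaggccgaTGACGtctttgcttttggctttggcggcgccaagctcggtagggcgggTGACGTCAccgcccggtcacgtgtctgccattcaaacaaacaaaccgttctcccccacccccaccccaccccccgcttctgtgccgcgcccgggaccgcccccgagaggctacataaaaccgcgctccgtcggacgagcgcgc
Btg2, chr1:134079156-134079405, minus strand: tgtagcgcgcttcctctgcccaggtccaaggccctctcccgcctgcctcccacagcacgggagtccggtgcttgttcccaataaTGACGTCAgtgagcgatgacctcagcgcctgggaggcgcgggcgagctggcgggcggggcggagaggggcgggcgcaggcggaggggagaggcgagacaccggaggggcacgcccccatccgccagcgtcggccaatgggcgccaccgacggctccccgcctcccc
The Fos matches began 129 and 66 bases before the start, and its window was the 1 member window with TATAAA, 33 bases before it (12.4% of all windows held this motif). In Nr4a1 all 4 matches lay on the opposite strand, beginning at -233, -213, -69 and -40. The whole element began at -143 in Dusp1 and at -166 in Btg2. GGGCGG, the GC box bound by SP1-type factors, was present in 6 of 7 windows, all but that of Junb, and in 32.7% of all windows. TGACTCA, the AP-1 site, and the CArG box, the core of the serum response element, were in 0 of 7 windows, against 4.46% and 1.47% of all. All motifs were searched on both strands without mismatches. The CArG box was taken as CC, then 6 bases of A or T, then GG. Sites with a mismatch or further upstream were not counted, so 0 of 7 does not show that these genes lack the sites. The member windows were 58.4% to 74.4% G and C, and the median of all windows was 52.4%, and this difference in base composition bears on how often motifs rich in G and C occur. These matches are letters in a window of this size and no measurement of binding.

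**Figure D1:**
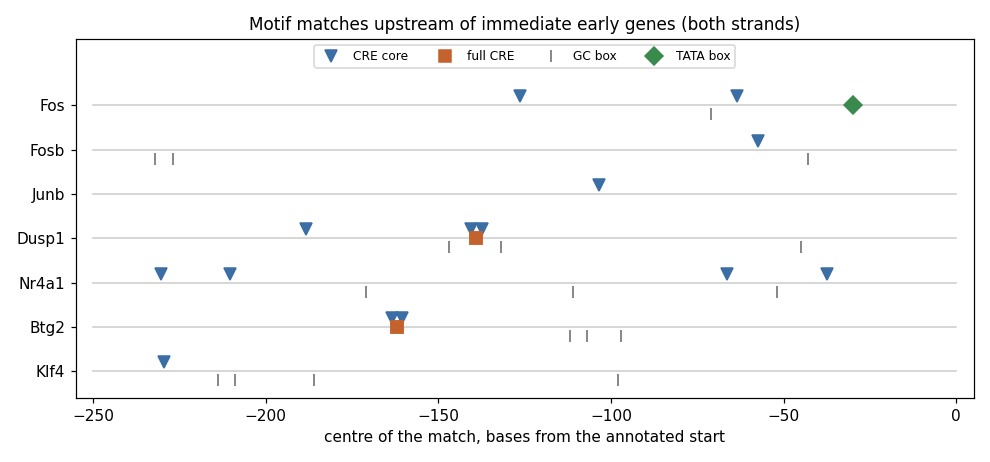
Motif matches in the 250 bases upstream of 7 immediate early genes. The x axis gives the distance of the centre of each match from the annotated start in bases, each line is 1 gene, triangles are TGACG, squares TGACGTCA, ticks GGGCGG and the diamond TATAAA. Every line carries at least 1 triangle, and the lines of Dusp1 and Btg2 carry a square.

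The FOS and JUN families make up the AP-1 factor, which forms as a dimer. Fos, which encodes the founding FOS subunit, had intensities of 88.3 and 96.3 at the sample-1 level and of 111 and 89.4 at the sample-2 level. The levels overlapped, because sample-2 array 1 was the highest of the 4 and sample-2 array 2 lay between the sample-1 arrays. The difference was 0.10 ± 0.16 (SE), with a 95% interval from -0.24 to 0.44 (limma, adjusted p = 0.88). Junb, a JUN-family partner of the FOS proteins, measured 80.5 and 83.4 at the sample-1 level and 84.9 and 106 at the sample-2 level. Its arrays did not overlap, but the gap rested on sample-2 array 2, since the other sample-2 array stood just above the sample-1 arrays. The difference was 0.18 ± 0.16 (95% interval -0.17 to 0.52, adjusted p = 0.752). Fosb, a second FOS subunit whose products can be long-lived, measured 8.48 and 10.5 at the sample-1 level and 13.8 and 2.10 at the sample-2 level. It lay below the filter on low signal, an intensity of 14.3, on every array and was not tested. Without the filter its difference was -0.13 ± 0.28, with a 95% interval from -0.79 to 0.53.

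**Figure D2:**
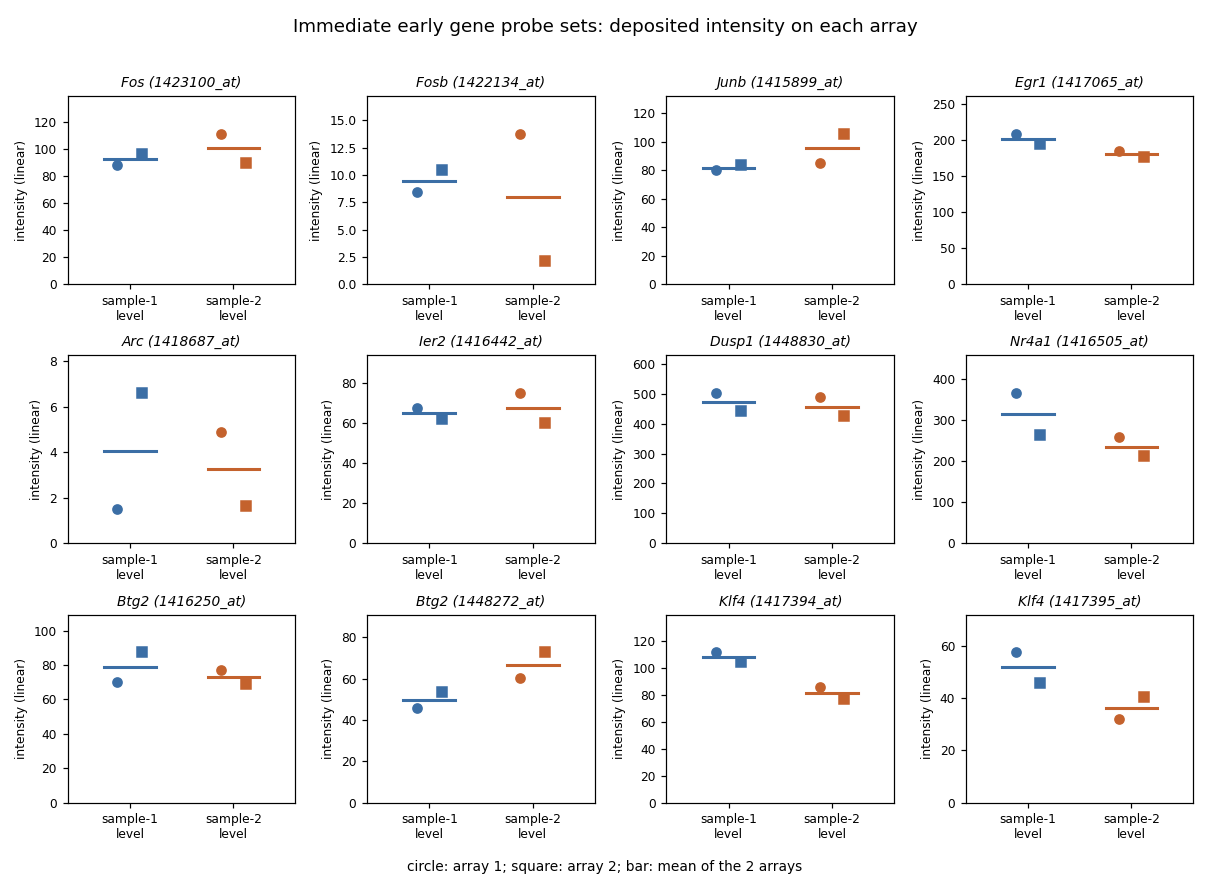
Intensity (linear, as deposited) of the 12 probe sets of the 10 immediate early genes, 1 panel each, on the 2 arrays of the sample-1 level (blue) and the 2 of the sample-2 level (orange). Circles are array 1, squares array 2 and bars the mean. Fosb and Arc stay under 14.3 on every array. In the panels of Nr4a1, Egr1 and Klf4 both orange points lie below both blue ones. In those of Junb and of the dimmer Btg2 probe set both lie above.

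Egr1, Nr4a1 and Klf4 encode DNA-binding factors of other families. All 4 of their probe sets, 2 of them of Klf4, were lower on both sample-2 arrays, as were 20.1% of all tested probe sets. No other member probe set had this order. Nr4a1, the orphan nuclear receptor NUR77, had intensities of 367 and 265 at the sample-1 level and of 259 and 212 at the sample-2 level. The levels did not overlap, yet sample-1 array 2 stood closer to sample-2 array 1 than to the other array of its own level. Its mean was 316 ± 72.2 (SD, n = 2) at the sample-1 level and 236 ± 33.6 at the sample-2 level, a ratio of 0.746. The difference of -0.39 ± 0.15 (95% interval -0.72 to -0.05) had an unadjusted p of 0.0267 and an adjusted p of 0.369 (limma). It was -0.16 without sample-1 array 1 (adjusted p = 0.80) and -0.61 without sample-1 array 2 (adjusted p = 0.136). The range of the adjusted p over all alternatives was 0.0575 to 0.80.

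Klf4, a zinc-finger factor of the Krüppel-like family that is also made by endothelial and fibroblast-like cells, had a pair of probe sets. The brighter measured 111 and 104 at the sample-1 level and 85.5 and 76.4 at the sample-2 level. The arrays of a level lay close together and apart from the other level, with a ratio of means of 0.751. The difference was -0.35 ± 0.15 (95% interval -0.68 to -0.03, unadjusted p = 0.0359, adjusted p = 0.411, limma). The dimmer measured 57.5 and 45.8 against 31.9 and 40.5, a ratio of 0.701 and a difference of -0.37 ± 0.20 (95% interval -0.81 to 0.07, adjusted p = 0.547). Both probe sets of Klf4 thus had the same sign and nearly the same size, without passing the threshold. Egr1, a zinc-finger factor induced through SRF and MAP kinase signalling, measured 209 and 195 at the sample-1 level and 184 and 177 at the sample-2 level. Its groups did not overlap, by a margin about as wide as the spread within a level. The difference was -0.15 ± 0.12 (95% interval -0.41 to 0.12, adjusted p = 0.725).

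The remaining members act outside or beside transcription. Dusp1, a nuclear phosphatase that switches off MAP kinases, measured 502 and 443 at the sample-1 level and 488 and 425 at the sample-2 level. Its levels overlapped almost fully, with array 1 above array 2 in both, and the difference was -0.05 ± 0.11 (95% interval -0.29 to 0.19, adjusted p = 0.921). Ier2, a short-lived nuclear protein, measured 67.4 and 62.1 against 74.9 and 60.1. Both sample-1 arrays lay between the sample-2 arrays, and the difference was 0.04 ± 0.17 (95% interval -0.33 to 0.42, adjusted p = 0.961). Arc, which acts at synapses in the removal of AMPA receptors, measured 1.49 and 6.60 at the sample-1 level and 4.87 and 1.64 at the sample-2 level. It was below the filter on every array and was not tested. Without the filter its difference was -0.05 ± 0.19 (95% interval -0.51 to 0.40). No detection calls were used, so these low intensities have no call against background.

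Btg2, an antiproliferative protein that links to the mRNA deadenylase complex, had a pair of probe sets with opposite signs. The brighter measured 70.2 and 87.5 at the sample-1 level and 77.0 and 68.9 at the sample-2 level, which overlap. Its difference was -0.09 ± 0.17 (95% interval -0.45 to 0.28, adjusted p = 0.905). The dimmer measured 45.6 and 53.6 at the sample-1 level and 60.1 and 72.7 at the sample-2 level. Here both sample-2 arrays were higher, with a ratio of means of 1.34 and a difference of 0.33 ± 0.18 (95% interval -0.07 to 0.72, adjusted p = 0.555). Neither passed, and the gene therefore has no settled direction.

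**Figure D3:**
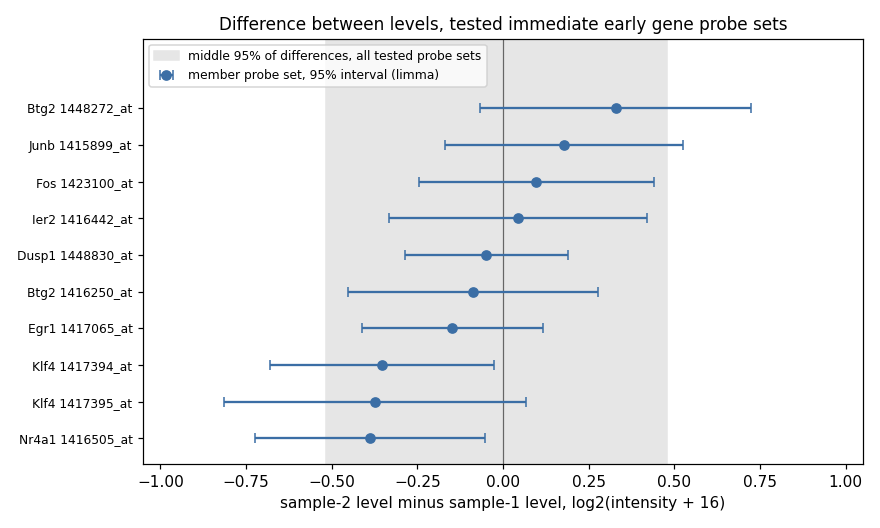
Difference between levels for the 10 tested probe sets, as sample-2 value minus sample-1 value in log2(intensity + 16). Points are the fitted differences, bars their 95% intervals (limma, 2 arrays per level) and the grey band the middle 95% of differences over all tested probe sets, from -0.52 to 0.48. All 10 points lie inside the band, and 2 bars, those of Nr4a1 and of the brighter Klf4 probe set, leave out 0.

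Among the 10 tested probe sets 4 differences were above 0 and 6 below, with a median of -0.07, against 0.00 over all tested probe sets. The median size of the difference, regardless of sign, was 0.16 for the members and 0.13 for all. The arrays of the 2 levels did not overlap for 6 of the 10, while 41.2% of all tested probe sets did not overlap. In 2 of them the sample-2 arrays were above, against 21.1% of all, and in 4 below, against 20.1% of all. Within a level, the gap between its arrays had a median of 0.14 at the sample-1 level and 0.23 at the sample-2 level for the members, and of 0.15 at both levels over all tested probe sets. Sample-1 array 1 was the highest of the 4 arrays for 5 of the 10 probe sets and sample-2 array 2 the lowest for 6. The highest array was sample-1 array 2 for 1 probe set, sample-2 array 1 for 2 and sample-2 array 2 for 2, so the members did not share 1 pattern. The shares of these orders over all tested probe sets were not computed. The summed intensity of the brightest tested probe set of the 8 genes was 1496 and 1336 for the sample-1 level and 1365 and 1214 for the sample-2 level, which overlap.

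The profile of Fos spanned 0.29 in log2 over the 4 arrays. Likeness to it was measured as the largest gap, over the 4 arrays, between log2 values centred on each gene's mean. The nearest of 13535 other genes were Trim3, Bpifb1, Harbi1, Tmem250-ps and Copb1, with largest gaps of 0.02 each. A gap under 0.1 was found for 555 of these genes and a gap under 0.05 for 72.

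Other immediate early genes, given by each gene's brightest tested probe set, did not differ past the threshold either. Of 19 tested transcription factors outside the members 0 passed (limma; 4 had an unadjusted p under 0.05), against 0.842% of all 13543 genes passing and 12.3% with an unadjusted p under 0.05. The median difference was -0.05, against -0.01 over all genes. Bhlhe40, a basic helix-loop-helix repressor, had the largest difference of these factors. It measured 166 and 169 at the sample-1 level and 101 and 120 at the sample-2 level, with both sample-2 arrays lower (-0.54 ± 0.14, adjusted p = 0.128). Atf3, an ATF-family factor that sensory neurons make after nerve injury, measured 117 and 92.8 against 72.3 and 65.0, again without overlap (-0.51 ± 0.16, adjusted p = 0.241).

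Of 24 tested effectors and feedback inhibitors 0 passed (limma; 6 had an unadjusted p under 0.05), with a median difference of -0.03. Sik1, a salt-inducible kinase that restrains CREB coactivators, measured 12.1 and 5.78 at the sample-1 level and 24.0 and 28.3 at the sample-2 level. The sample-1 arrays lay below the filter level, so Sik1 entered the test only through the level where it is higher, and neither its difference of 0.77 ± 0.27 nor its place among the 6 is support for a change. Dusp4, a MAP kinase phosphatase of the same family as Dusp1, measured 39.997 and 46.4 at the sample-1 level and 22.9 and 18.0 at the sample-2 level (-0.70 ± 0.22, adjusted p = 0.229). The arrays of Dusp4 did not overlap between the levels. Gadd45b, named here after its values were seen because it had the lowest p of the list, lay lower (-0.62 ± 0.14, limma, adjusted p = 0.0784). Of the 24 genes 11 lay above 0 and 13 below.

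Of 18 tested kinases and factors upstream of these genes 0 passed (limma; 3 had an unadjusted p under 0.05), with a median of 0.06. Mrtfa, a coactivator of SRF, measured 164 and 213 against 137 and 144 (-0.37 ± 0.14, adjusted p = 0.35). Rps6ka5, the kinase MSK1 that phosphorylates CREB and histone H3, measured 147 and 113 against 171 and 172 (0.37 ± 0.14, adjusted p = 0.357), and its other 2 tested probe sets differed by 0.27 and 0.24.

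Genes of 2 further stress responses were set beside them. Of 12 tested heat shock genes 0 passed (limma, 0 with an unadjusted p under 0.05), with differences from -0.12 to 0.25. The inducible HSP70 genes Hspa1a and Hspa1b had the largest. Hspa1a measured 123 and 150 at the sample-1 level and 155 and 174 at the sample-2 level (0.25 ± 0.14, adjusted p = 0.575). Hspa1b measured 450 and 392 against 474 and 496 (0.20 ± 0.10, adjusted p = 0.528). The pair are near-identical in sequence, so their probe sets may not separate them. Of 10 tested hypoxia response genes 0 passed (limma; 2 had an unadjusted p under 0.05), with 5 above and 5 below 0 and a median of -0.02. Ankrd37 measured 12.5 and 18.4 against 35.5 and 25.7 (0.57 ± 0.25, adjusted p = 0.446). Adm, the peptide adrenomedullin, measured 33.7 and 26.3 against 43.3 and 36.4 (0.28 ± 0.21, adjusted p = 0.695), and its other probe set differed by 0.84 ± 0.22 (adjusted p = 0.135). Ndrg1, named here after its values were seen because it had the lowest p of the list, lay lower (-0.28 ± 0.08, adjusted p = 0.212).

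**Figure D4:**
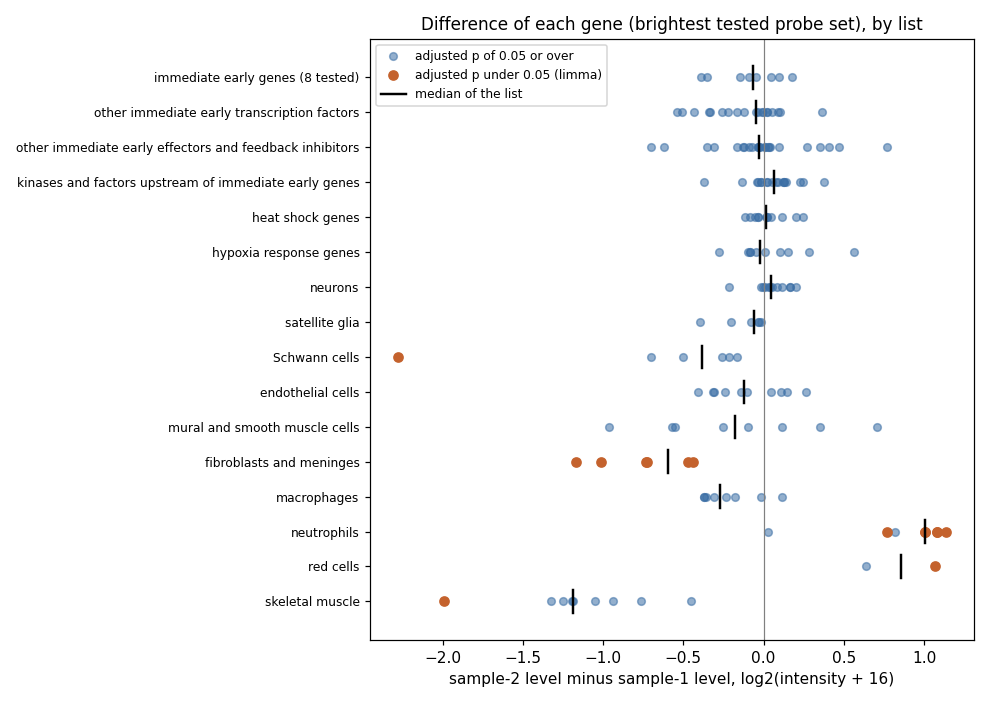
Difference between levels of each tested gene by its brightest probe set, as sample-2 value minus sample-1 value in log2(intensity + 16), for the immediate early genes, their relatives, stress genes and markers of cell types. Each point is a gene, orange where adjusted p is under 0.05 (limma), and black bars are list medians. The 6 upper lists hold no orange point, while fibroblast markers hold 6 on the left and neutrophil markers 6 on the right.

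The ganglia held the markers of sensory neurons at high and similar intensity. Of 12 neuron markers 0 differed past the threshold (limma; 1 had an unadjusted p under 0.05), and their summed intensity was 56127 to 57267 at the sample-1 level and 55817 to 59624 at the sample-2 level. The marker lists of some other cells of the dissected tissue held genes past the threshold, and others held none. Of 8 tested fibroblast and meningeal markers 6 were lower past the threshold (0.546% of all genes were), and their summed intensity was 12820 to 14688 at the sample-1 level and 7941 to 8445 at the sample-2 level. Of 8 tested neutrophil markers 6 were higher past the threshold (0.295% of all genes were), with sums of 3303 to 3954 and 6625 to 8329. Of 10 endothelial markers 0 passed (limma; 1 with an unadjusted p under 0.05), 6 lay below 0, and the sums were 998 to 1035 and 854 to 1011. Of 8 macrophage markers 0 passed (limma; 4 with an unadjusted p under 0.05), 7 lay below 0, and the sums were 1013 to 1085 and 824 to 843. The lowest intensity of a tested marker of the neuron, fibroblast, neutrophil, endothelial and macrophage lists was 10.4, in the endothelial list. Of 6 tested Schwann cell markers 6 lay below 0 and 1, Pmp2, was lower past the threshold (limma, 4 with an unadjusted p under 0.05). Without the filter on low signal Pmp2 had an adjusted p of 0.132 (limma). The Schwann cell list had a median of -0.38 and sums of 16230 to 17579 and 12572 to 15908. Its marker Egr2 is also among the immediate early factors. Of 6 satellite glia markers 6 lay below 0 and 0 passed (limma; 1 with an unadjusted p under 0.05), with a median of -0.06 and sums of 12590 to 13142 and 11847 to 12884. List medians lay below 0 for fibroblast, macrophage, Schwann cell, satellite glia, endothelial, mural cell and skeletal muscle markers. Those of neuron, neutrophil and red cell markers lay above 0. Among tested member probe sets, those of Klf4, Nr4a1, Egr1 and Dusp1 and the brighter one of Btg2 lay below 0. Those of Fos, Junb and Ier2 and the dimmer one of Btg2 lay above 0. The part of any of these cells in the member values was not tested. In RNA of whole ganglia, fewer cells of a type and less RNA per cell cannot be told apart. Skeletal muscle markers were summed at 6136 on sample-1 array 2 against 1016 to 1519 on the other 3 arrays, and no tested member probe set but the brighter one of Btg2 was highest on that array.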

How the data were processed

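Total RNA was hybridised to 4 Affymetrix arrays, 2 per level of ganglia, grouped by their titles. The authors deposited 1 linear intensity per probe set; the software is not given in the sources used here. Each array had a mean of 150.0 after trimming 2% at either end, so the deposited intensities were already scaled and were kept. The median intensity was 25.9 to 27.3, and precision is limited by having 4 arrays. The 64 control probe sets and those with a mean under the 40th percentile (intensity 14.3) were left out, leaving 27022 of 45101. log2(intensity + 16) was tested in limma 3.58.1 under R 4.3.3 (lmFit, eBayes with intensity trend, 2 residual and 9.71 prior degrees of freedom) and Benjamini-Hochberg adjustment over all of them; past the threshold means adjusted p under 0.05. Intervals are limma's, not adjusted for the number of probe sets. The fit was also run on simulated independent arrays drawn from its own variance model without the filter. That run cannot test the filter or the effect of technical replicates. Symbols came from the platform annotation (34945 probe sets with 1, 932 with several, 9160 with none), and all 10 members matched RefSeq gene IDs.

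Members and lists were chosen with earlier results of these data known. The lists were other immediate early factors, effectors, upstream kinases, heat shock, hypoxia and markers of 10 cell types. Named from them were genes past the threshold (up to 4), otherwise the 2 with the largest difference; likeness to Fos named 5. Cell type lists are given by counts. Alternatives were other pseudocounts (1, 64), filters (none, 60th percentile), quantile or median scaling, the array number as a block, no trend, no _x_at or _s_at probe sets, and each array left out.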

Additional observations from a re-analysis of the deposited data

How the results depend on the processing

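Across 13 alternatives 0 member probe sets passed an adjusted p of 0.05 (limma), with a lowest adjusted p of 0.0575, that of Nr4a1 with the array number as a block. The labels do not say that the numbers pair the arrays, and deviations of same-numbered arrays correlated at 0.03. Over all probe sets, 168 passed, against 793 with that replicate block, 104 with arrays centred on their medians, 4 without the filter on low signal, 1 without the intensity trend, and 102 to 241 with each array left out (102 without sample-2 array 2). With the block Bhlhe40, Nptx2, Gadd45b and Ndrg1 passed by their brightest probe set, the last 3 chosen after their values were seen. Other probe sets of Ndrg1, Socs3 and Hspa8 passed in some other settings. With 1 array left out, the lone array of a level is assumed to vary like the others.

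Of 129 member values under alternatives 123 kept their direction and their side of the threshold. The 6 of opposite sign came with an array left out, where differences ranged from -0.039 to 0.23 for Fos, -0.085 to 0.17 for Ier2 (-0.0045 without sample-1 array 2), -0.14 to 0.047 for Dusp1 and -0.22 to 0.044 for the brighter Btg2 probe set. Junb, Egr1, Nr4a1, Klf4 and the dimmer Btg2 probe set had no such value. The cause was not tested.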

Other observations

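Values of 3 further lists of cell type markers are given here, by each gene's brightest tested probe set. Over all tested genes, 0.842% passed the threshold and 12.3% had an unadjusted p under 0.05. Of 8 mural cell and smooth muscle markers 0 passed (limma, 6 with an unadjusted p under 0.05), with 3 above and 5 below 0. Des, among the 6, measured 26.6 and 63.8 at the sample-1 level and 5.95 and 24.8 at the sample-2 level. Sample-2 array 1 lay below the filter level and the sample-1 level raised its mean. The place of Des among the 6 is therefore no support for a difference. Of 2 tested red cell markers 1, the anion exchanger gene Slc4a1, was higher past the threshold. Without the filter on low signal Slc4a1 had an adjusted p of 0.387 (limma). Of 9 skeletal muscle markers all lay below 0, and their sums overlap between the levels apart from sample-1 array 2. Myh2, a fast myosin gene and the 1 past the threshold, measured 42.8 and 120 at the sample-1 level and 2.16 and 11.7 at the sample-2 level. It passed the filter on low signal only through the sample-1 level, so its call is no support for a difference. No immediate early list had a median outside -0.07 to 0.06.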
